A study of Mus musculus with 5 samples.

Results

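RNA of amino acid transporters was followed in macrophages grown from mouse bone marrow (5 libraries), all stimulated with interleukin 4 (IL-4). The set was chosen by function and holds 10 genes: the cationic amino acid carriers Slc7a1 and Slc7a2, the shared heavy chain Slc3a2, its light chains Slc7a5, Slc7a7 and Slc7a8, the sodium-coupled carriers Slc38a1 and Slc38a2, and the neutral amino acid exchangers Slc1a4 and Slc1a5. Slc7a5 was not analysed here. The other 9 genes belong to 49341 genes with a transcript in the files, and 8 of them were among the 10770 genes with a mean of at least 1 FPKM (fragments per unit of transcript length, corrected for how many fragments of each library were mapped) that were tested. Slc1a4 lay below that level.

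The cells came from marrow of wild-type C57BL/6 mice, grown for 6 days with CSF1 or L929 supernatant as the source of growth factor, and 96% carried F4/80 and CD11b per the labels. One group received 30 µM CBR-5884, which inhibits PHGDH (the enzyme of the committed step of serine synthesis), before 10 ng/ml IL-4 for 24 h, in 3 libraries numbered 3, 4 and 5. The other received solvent before the same IL-4, in 2 libraries numbered 3 and 5. The medium of both groups held 2 mM L-glutamine. No label says that the libraries of a group are separate cultures or mice, and the p-values here cover the spread among these libraries only.

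Amino acid carriers of the plasma membrane let amino acids pass alone, couple them to the sodium gradient, or swap one amino acid for another. Several Slc7 proteins reach the surface only when bound through a disulfide bridge to the glycoprotein CD98 heavy chain, the product of Slc3a2. In IL-4-stimulated macrophages arginine uptake feeds arginase 1, and carriers such as the products of Slc1a4 and Slc1a5 take up serine, the amino acid that PHGDH helps to make.

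Coverage over FPKM implied depths of 30230000 to 30700000 fragments in CBR-5884 libraries and 28310000 to 28850000 in solvent libraries. Macrophage markers (8 of 8 tested, 0 called) summed to 9743 to 13078 FPKM with CBR-5884 and 11011 to 13092 FPKM with solvent. Lyz2 held most of each sum, with 6964 to 10241 FPKM with CBR-5884 and 8456 to 10378 FPKM with solvent. Itgam and Cd68 were above solvent in every CBR-5884 library, Fcgr1 and Cd14 were below, and the other 4 overlapped. Among all genes tested, the groups did not overlap for 41.5%. T and B cell markers summed to 0.207 to 0.323 FPKM with CBR-5884 and 0.258 to 0.379 FPKM with solvent. Neutrophil markers summed to 10.4 to 12.9 FPKM with CBR-5884 and 10.0 to 20.7 FPKM with solvent, led by S100a8. Ly6g was listed at 0 in all 5 libraries. Camp was at 0 in every CBR-5884 library, against 0.341 and 0.197 FPKM with solvent. Ltf had 0.112, 0.0507 and 0.175 FPKM with CBR-5884, against 0.709 and 0.424 FPKM with solvent. Both lay below the level for testing, and the other detected neutrophil markers overlapped between the groups. The stromal and endothelial markers (6 genes, 3 tested, 0 called) summed to 12.3 to 19.5 FPKM with CBR-5884 and 20.3 to 21.3 FPKM with solvent, led by Col1a1 and Col1a2 and with none at 0 in every library. The dendritic cell markers, all 6 below the level for testing and none at 0 in every library, summed to 0.916 to 1.21 FPKM with CBR-5884 and 1.41 to 2.26 FPKM with solvent. The stromal and dendritic sums were lower in every CBR-5884 library, as were Camp and Ltf, and their part in the results below was not tested. In bulk RNA, fewer cells that express a gene and less of its RNA per cell cannot be told apart.

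None of the 8 tested transporters passed the test for a difference between CBR-5884 and solvent (limma on log2(FPKM + 1), adjusted p below 0.05), where 0.223% of all 10770 genes did, 0.0464% higher and 0.176% lower. Slc3a2 came closest, with 1.31 times as much RNA in CBR-5884 as in solvent libraries. At an unadjusted p below 0.05, Slc3a2 alone of the 8 was higher and no member was lower, against 19.6% of all genes in either direction, 7.24% higher and 12.4% lower. The groups did not overlap for 2 of 8 members, Slc3a2 and Slc38a2, both above solvent, against 41.5% of all genes in either direction, 16.6% above and 24.9% below. Fold changes were positive for 5 members and negative for 3, with a median log2 fold change of 0.05 against -0.03 over all genes tested.

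Across all genes the unadjusted calls ran 780 higher and 1334 lower, so 36.9% were higher. This share was 53.5% after rescaling to TPM, 52.1% after median-ratio scaling and 55.2% after quantile normalization. All 8 members kept their sign under these 3 scalings.

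**Figure D1:**
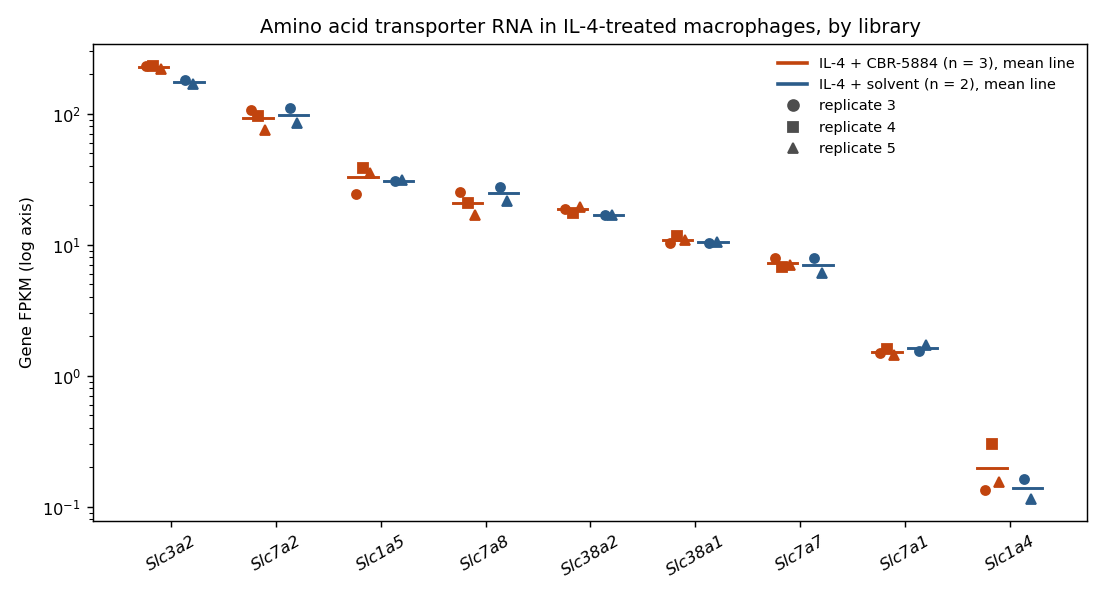
Gene FPKM of the 9 transporters in each library on a log axis, ordered by mean level with solvent; points are libraries, and lines are group means for IL-4 with CBR-5884 (n = 3, left of each pair) and IL-4 with solvent (n = 2). Slc3a2 sat at 219.9 to 232.0 FPKM with CBR-5884 and 167.4 to 179.5 FPKM with solvent, and the order of the genes was the same in both groups.

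The order of the mean levels per length was the same in both groups: Slc3a2, Slc7a2, Slc1a5, Slc7a8, Slc38a2, Slc38a1, Slc7a7, Slc7a1 and Slc1a4. Neighbours in that order had separate ranges over libraries, except Slc1a5 with Slc7a8 and Slc7a8 with Slc38a2, which overlapped in the CBR-5884 libraries and were apart in the solvent libraries. The 9 genes summed to 424, 426 and 385 FPKM with CBR-5884 and to 384 and 339 FPKM with solvent, and the lowest CBR-5884 library was 1.14 FPKM above the higher solvent library. Slc3a2 made up 54.2%, 54.5% and 57.1% of the sum with CBR-5884, against 46.7% and 49.3% with solvent. The mean sum was 411.7 FPKM with CBR-5884 and 361.8 FPKM with solvent, and the mean of Slc3a2 alone 227.3 and 173.5 FPKM. The remaining genes together were thus not higher on average with CBR-5884.

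Slc3a2, the heavy chain (GRCm38 chromosome 19, 8706882 to 8723369, minus strand), was the most abundant of the set. It had 230.0, 232.0 and 219.9 FPKM in CBR-5884 replicates 3, 4 and 5, against 179.5 and 167.4 FPKM in solvent replicates 3 and 5. Every CBR-5884 library was above both solvent libraries, and the gap between the groups was wider than the spread within either. The means were 227.3 ± 6.48 FPKM with CBR-5884 (SD, n = 3) and 173.5 ± 8.57 FPKM with solvent (SD, n = 2). The log2 fold change was 0.39 (SE 0.053, 95% interval 0.25 to 0.53), with a limma adjusted p of 0.101 and rank 121 of 10770 by p. The exact two-sided permutation test gave p = 0.1, the smallest that 3 libraries against 2 allow.

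Both measured Slc3a2 transcripts showed the same separation. The longer one, of 1819 nt, had 158.8, 155.3 and 151.7 FPKM with CBR-5884, against 122.1 and 110.1 FPKM with solvent. The shorter one, of 1393 nt, has 8 exons against 9 in the longer. It had 71.2, 76.8 and 68.2 FPKM with CBR-5884, against 57.4 and 57.3 FPKM with solvent. For both transcripts the deposited 95% intervals of every CBR-5884 library lay above those of both solvent libraries; these intervals cover estimation within a library. The share of the longer transcript was 66.9% to 69.0% with CBR-5884 and 65.8% to 68.0% with solvent, so the ranges of the shares overlapped.

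A gene sum of FPKM weighs each transcript by its inverse length, so an uncertain split between a short and a long transcript moves the sum. The values were therefore also multiplied by transcript length in kilobases and summed, here called FPM, a scale chosen after the FPKM results had been seen. On it Slc3a2 had 388, 389 and 371 FPM with CBR-5884, against 302 and 280 FPM with solvent. The log2 fold change was 0.39 (SE 0.055), against 0.39 (SE 0.053) on FPKM, with a limma adjusted p of 0.0311. Slc3a2 was thus the 1 called member of 8 on this scale. There 2.7% of all genes were called, 1.02% higher and 1.68% lower, against 0.223% in either direction on FPKM. The residual SD of the genes tested (log2 scale) had a median of 0.0893 on FPM and 0.102 on FPKM. Its upper quartile was 0.148 on FPM and 0.20 on FPKM. Of the called genes, 18 were called on both scales, 6 on FPKM alone and 273 on FPM alone.

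The call on that scale did not survive the loss of any 1 library, with limma adjusted p of 0.0879, 0.080 and 0.0646 without CBR-5884 replicate 3, 4 or 5, and 0.167 and 0.192 without solvent replicate 3 or 5. The log2 fold change without 1 library stayed between 0.34 and 0.45. The number of genes called over the whole table, 291 with all libraries, also fell without 1 library, to 22 to 100.

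**Figure D2:**
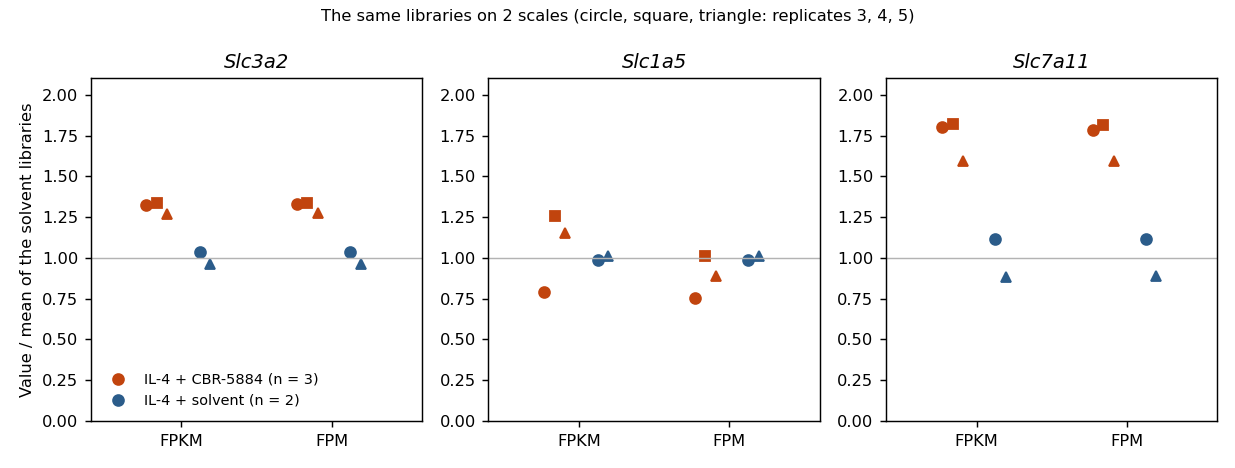
Value in each library over the mean of the solvent libraries, as FPKM and as FPM, for Slc3a2, Slc1a5 and Slc7a11; red points are IL-4 with CBR-5884 (n = 3) and blue points IL-4 with solvent (n = 2). Slc3a2 and Slc7a11 kept the same separation on both scales, while the highest Slc1a5 library with CBR-5884 was above solvent as FPKM (38.6 against 30.4 and 31.2) and between the solvent libraries as FPM (86.7 against 84.9 and 87.1).

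Among the light chains that pair with Slc3a2, Slc7a7 (y+LAT1, which exchanges cationic for neutral amino acids) had 7.86, 6.71 and 6.97 FPKM with CBR-5884, against 7.87 and 6.08 FPKM with solvent. The groups overlapped, with a log2 fold change of 0.04 (SE 0.13, 95% interval -0.29 to 0.38) and a limma adjusted p of 0.869. Exons of Slc7a7 (chromosome 14, 54369442 to 54417780, minus strand) overlap those of Oxa1l on the opposite strand by 232 nt. The kit is directional but the strand setting of the counting is not given in the sources used here, so reads of that stretch could come from either gene.

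Slc7a8 (LAT2, an exchanger of neutral amino acids; chromosome 14, 54722209 to 54781946, minus strand) had 25.0, 20.7 and 16.7 FPKM with CBR-5884, against 27.7 and 21.6 FPKM with solvent. The range with CBR-5884 reached lower but overlapped that with solvent. The difference on the log2 scale was -0.24 (SE 0.20, 95% interval -0.78 to 0.29), with a limma adjusted p of 0.552. In both groups replicate 3 was higher than replicate 5, by a ratio of 1.495 with CBR-5884 and 1.28 with solvent.

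The light chains in the files that were tested, Slc7a6, Slc7a7, Slc7a8 and Slc7a11, summed to 53.1, 48.4 and 42.2 FPKM with CBR-5884, against 49.1 and 39.4 FPKM with solvent. Slc3a2 exceeded this sum 4.34, 4.79 and 5.21 times with CBR-5884, against 3.65 and 4.25 times with solvent. Every CBR-5884 library was above both solvent libraries in this ratio, the nearest by 0.083. Slc7a8 over Slc7a7 was 3.18, 3.09 and 2.40 with CBR-5884, against 3.51 and 3.56 with solvent, lower in every CBR-5884 library. Neither of these genes alone separated the groups, the groups were apart for 41.5% of all genes, and no ratio was tested. Slc7a5, another partner of Slc3a2, is not in the sum.

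Of the cationic amino acid carriers, which take up arginine, lysine and ornithine, Slc7a2 (CAT2; chromosome 8, 40862396 to 40922308, plus strand) was far above Slc7a1 (CAT1). In replicates 3, 4 and 5 with CBR-5884 the level of Slc7a2 per length was 71.4, 60.0 and 51.4 times that of Slc7a1, against 71.2 and 49.3 times in replicates 3 and 5 with solvent. The ratios of both groups overlapped.

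Slc7a2 is known for alternative coding exons of which a transcript carries 1, and the carrier proteins made from them differ in their affinity for arginine. The pair of seventh exons is shown because the transcripts measured here differ in which of them they hold. The upstream exon, at chr8:40908056-40908195 (GRCm38, plus strand, 140 nt), is in the transcripts of 3677 and 7626 nt. The downstream exon, at chr8:40908398-40908534 (137 nt), is in the transcript of 7910 nt. Aligned end to end they share 84 identical bases of 140 columns (60.0%), with 3 gap columns, and capitals mark the bases that are not identical to the other exon.
Slc7a2 upstream exon: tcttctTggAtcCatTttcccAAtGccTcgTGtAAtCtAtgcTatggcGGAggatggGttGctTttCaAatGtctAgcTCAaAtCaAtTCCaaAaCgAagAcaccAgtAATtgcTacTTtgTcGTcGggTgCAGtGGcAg
Slc7a2 downstream exon: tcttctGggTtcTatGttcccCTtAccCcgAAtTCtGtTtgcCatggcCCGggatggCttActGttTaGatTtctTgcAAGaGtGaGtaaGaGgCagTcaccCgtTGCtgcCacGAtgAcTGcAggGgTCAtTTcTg

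Transcripts with the upstream exon held 96.3, 96.6 and 63.6 FPKM with CBR-5884, against 109.6 and 84.0 FPKM with solvent. The transcript with the downstream exon had 10.2, 0 and 10.8 FPKM with CBR-5884 and was listed at 0 in both solvent libraries. It was therefore above 0 in 2 of 3 CBR-5884 libraries and in neither solvent library. A value of exactly 0 can be a failed split between transcripts that share their other exons, and no difference was tested.

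Gene totals of Slc7a2 were 106.4, 96.6 and 74.4 FPKM with CBR-5884, against 109.6 and 84.0 FPKM with solvent. The groups overlapped, and the log2 fold change was -0.07 (SE 0.20, 95% interval -0.60 to 0.47; limma adjusted p 0.869). Replicate 3 was above replicate 5 in both groups, by a ratio of 1.43 with CBR-5884 and 1.30 with solvent. An exon overlap of 635 nt with Gm26584 on the opposite strand involves a gene listed at 0 in all 5 libraries.

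Slc7a1 (chromosome 5, 148327410 to 148399904, minus strand) had 1.49, 1.61 and 1.45 FPKM with CBR-5884, against 1.54 and 1.70 FPKM with solvent. The implied fragments numbered 319 to 350 in each CBR-5884 library and 319 to 346 in each solvent library. The groups overlapped, and the log2 fold change was -0.06 (SE 0.11, 95% interval -0.35 to 0.23; limma adjusted p 0.789). In CBR-5884 replicate 3 an assembled transcript of 7039 nt held 83.6% of the gene's FPKM, while the reference transcript held all of it in the other libraries. With reference transcripts alone the Slc7a1 log2 fold change was -0.39.

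**Figure D3:**
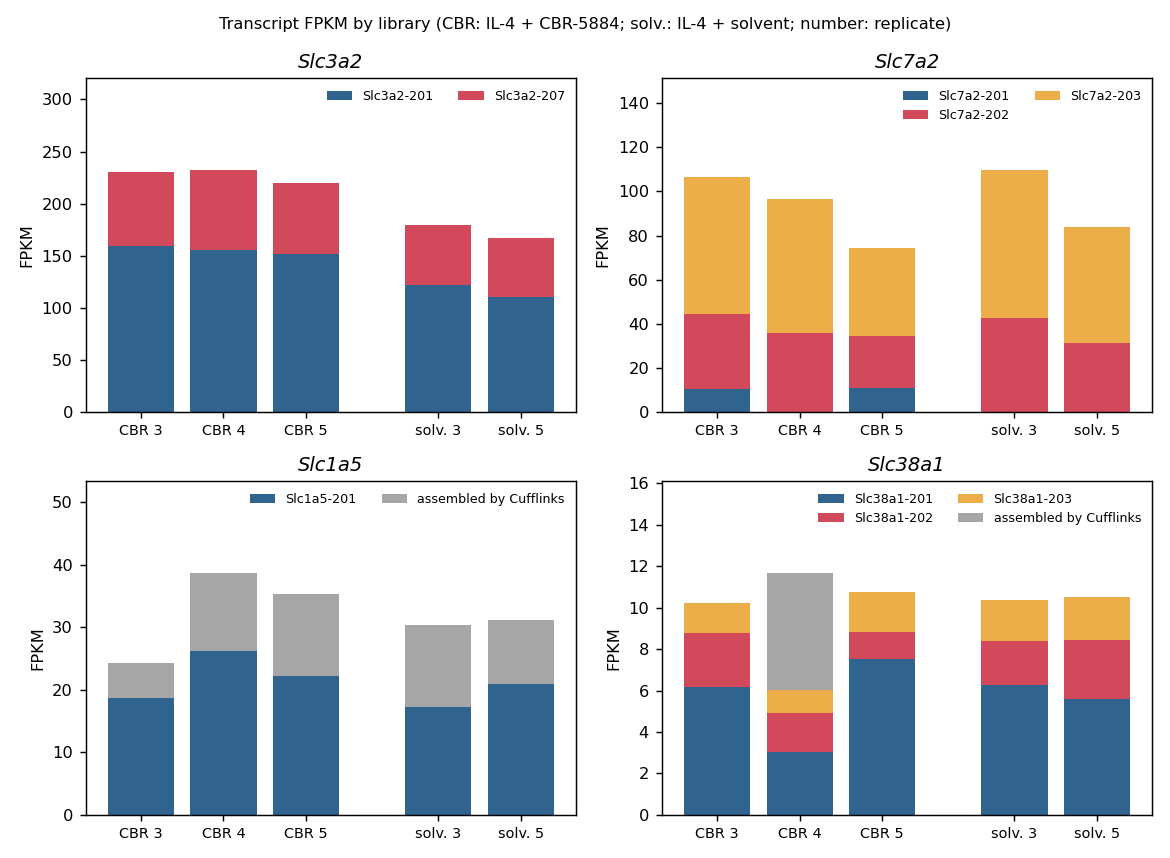
Stacked transcript FPKM per library for Slc3a2, Slc7a2, Slc1a5 and Slc38a1, with CBR-5884 replicates 3, 4 and 5 left of solvent replicates 3 and 5; grey is a transcript assembled by Cufflinks from the reads. Both Slc3a2 transcripts were higher in all 3 CBR-5884 libraries, the Slc7a2 transcript with the downstream exon (blue) appeared in CBR-5884 replicates 3 and 5, and assembled transcripts took part of Slc1a5 in every library and of Slc38a1 in CBR-5884 replicate 4.

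The sodium-coupled neutral amino acid carriers take up glutamine, alanine and serine, and Slc38a2 (SNAT2) is known to be induced when amino acids are short. Slc38a2 (chromosome 15, 96687392 to 96699730, minus strand) had 18.8, 17.4 and 19.5 FPKM with CBR-5884, against 16.9 and 16.7 FPKM with solvent. All 3 CBR-5884 libraries were above both solvent libraries, the nearest by 0.469 FPKM. The log2 fold change was 0.13 (SE 0.063, 95% interval -0.04 to 0.30), with an unadjusted p of 0.0984 and an adjusted p of 0.337 by limma.

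Slc38a1 (SNAT1; chromosome 15, 96571418 to 96642913, minus strand) had 10.2, 11.7 and 10.8 FPKM with CBR-5884, against 10.4 and 10.5 FPKM with solvent. The solvent libraries lay inside the CBR-5884 range (log2 fold change 0.05, SE 0.069, 95% interval -0.13 to 0.24; limma adjusted p 0.708). An assembled transcript of 7042 nt held 48.3% of the gene in CBR-5884 replicate 4, and with reference transcripts alone the log2 fold change was -0.23. The ratio of Slc38a2 over Slc38a1 was 1.84, 1.49 and 1.81 with CBR-5884, against 1.63 and 1.59 with solvent, so the groups overlapped in it.

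Slc1a5 (ASCT2; chromosome 7, 16781340 to 16798274, plus strand), which exchanges alanine, serine, cysteine and glutamine, had 24.3, 38.6 and 35.4 FPKM with CBR-5884, against 30.4 and 31.2 FPKM with solvent. The CBR-5884 libraries lay on both sides of the solvent libraries (log2 fold change 0.06, SE 0.21, 95% interval -0.51 to 0.63; limma adjusted p 0.892). Assembled transcripts were listed beside the reference transcript of Slc1a5 (2764 nt) in all 5 libraries, with lengths of 2321, 1156 and 1160 nt in CBR-5884 replicates 3, 4 and 5, and of 2835 nt in both solvent libraries. On the scale of FPM Slc1a5 had 64.6, 86.7 and 76.6 with CBR-5884, against 84.9 and 87.1 with solvent, and the log2 fold change was -0.19 (limma adjusted p 0.363). The sign of the Slc1a5 difference thus depended on the scale, and it did not pass the test on either.

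Slc1a4 (ASCT1, an exchanger of alanine, serine, cysteine and threonine; chromosome 11, 20302180 to 20332713, minus strand) had the lowest level of the set. It had 0.135, 0.301 and 0.154 FPKM with CBR-5884, against 0.164 and 0.114 FPKM with solvent. That implied 15.9 to 35.2 fragments in each CBR-5884 library and 12.5 to 18.3 in each solvent library, and the groups overlapped. In the fit with no filter on low values the Slc1a4 log2 fold change was 0.07 (limma adjusted p 0.740).

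Of 52 other amino acid transporters, listed by family, 11 were listed at 0 in every library, 23 lay below 1 FPKM and 18 were tested. None of the 18 passed the test on FPKM (limma). At an unadjusted p below 0.05, 4 of 18 were higher and 3 lower, where 7.24% of all genes were higher and 12.4% lower. The groups were apart for 8 of 18 above and 3 below, where 16.6% of all genes were above and 24.9% below. Their fold changes were positive for 13 and negative for 5, with a median log2 fold change of 0.07.

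Slc7a11, the light chain of the cystine and glutamate exchanger and a partner of Slc3a2, had 17.3, 17.5 and 15.3 FPKM with CBR-5884, against 10.7 and 8.49 FPKM with solvent. Its groups were apart, with a log2 fold change of 0.75 (SE 0.12) and a limma adjusted p of 0.120. On FPM its log2 fold change was 0.79 with a limma adjusted p of 0.0298, and without 1 library the adjusted p was 0.0507 (without CBR-5884 replicate 5) to 0.191 (without solvent replicate 5), so the call ended with any of the 5 left out.

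Slc36a4, a carrier of proline and tryptophan, had 28.9, 26.9 and 26.5 FPKM with CBR-5884, against 21.8 and 20.5 FPKM with solvent. The log2 fold change was 0.36 (SE 0.061) with a limma adjusted p of 0.126, and 0.38 with an adjusted p of 0.0385 on FPM. Leaving out any 1 library ended that call too, with limma adjusted p from 0.0760 (without CBR-5884 replicate 5) to 0.203 (without solvent replicate 3). Slc3a2 (1 of 8 members) and Slc7a11 and Slc36a4 (2 of 18 others) were the amino acid transporters called on FPM, all of them higher with CBR-5884. Of all genes, 1.02% were called higher and 1.68% lower on that scale.

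The remaining named carriers did not pass on either scale. Slc38a6 had a log2 fold change of 0.35 on FPKM (limma adjusted p 0.230) and of 0.20 on FPM, and Slc6a20b one of 0.13 on FPKM (limma adjusted p 0.254). Slc38a10 had 29.1, 30.0 and 29.5 FPKM with CBR-5884, against 34.2 and 32.7 FPKM with solvent (log2 fold change -0.17, limma adjusted p 0.177). Slc15a3, a lysosomal peptide and histidine carrier, had 237, 225 and 205 FPKM with CBR-5884, against 270 and 257 FPKM with solvent (log2 fold change -0.25, limma adjusted p 0.208), but the log2 fold change was 0.51 with reference transcripts alone. On FPM the Slc15a3 groups overlapped, at 556, 527 and 481 with CBR-5884 against 585 and 510 with solvent, with a log2 fold change of -0.07 (limma adjusted p 0.650). Its relative Slc15a4 had a log2 fold change of -0.03 (limma adjusted p 0.829) and Slc43a3, which belongs to a family of amino acid carriers but carries purine bases, one of -0.54 (limma adjusted p 0.215).

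**Figure D4:**
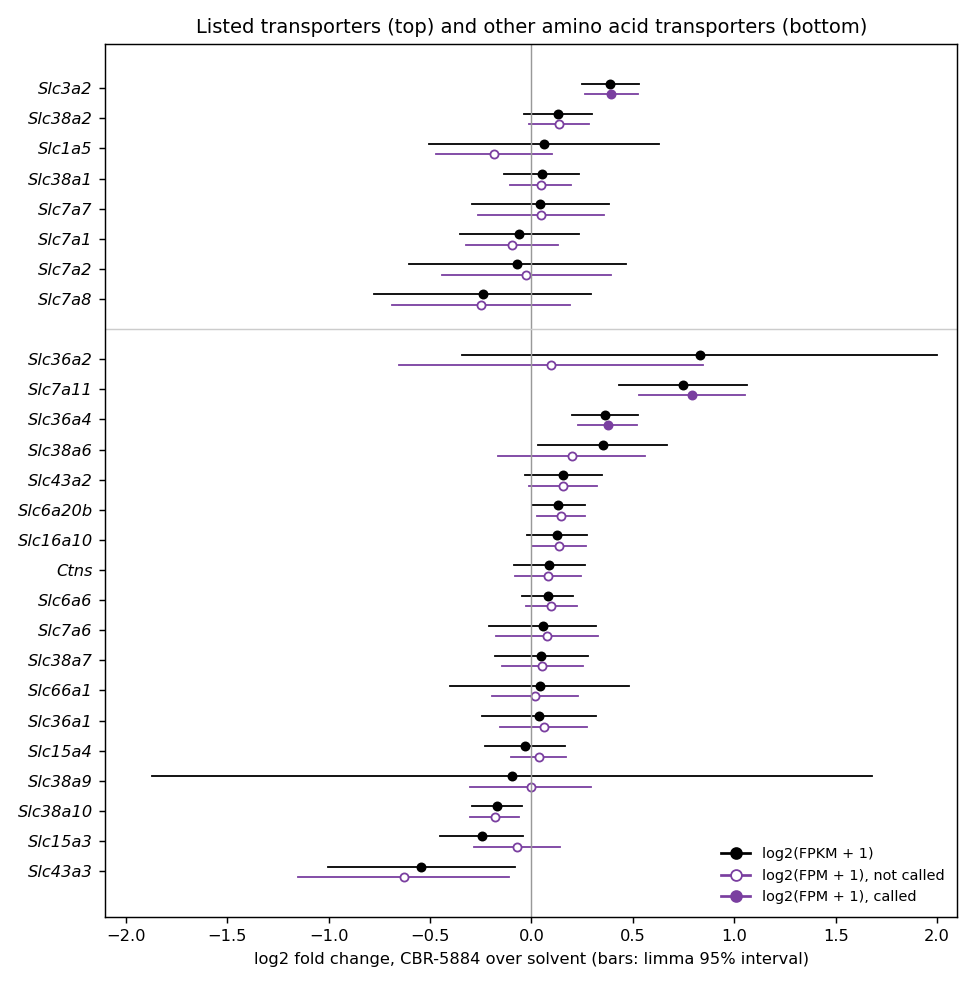
Log2 fold change of CBR-5884 over solvent with limma's 95% interval for the 8 tested members (top) and the 18 other tested amino acid transporters (bottom), on log2(FPKM + 1) in black and log2(FPM + 1) in purple; filled purple points passed an adjusted p below 0.05. Slc3a2, Slc7a11 and Slc36a4 passed on FPM, and Slc1a5 lay on opposite sides of 0 on the 2 scales.

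Amino acids that enter the cell are sensed by the machinery that recruits the kinase complex mTORC1 to lysosomes. Of 33 listed sensing genes, 1 could not be matched by symbol, 1 lay below the level for testing, and 31 were tested. None passed on FPKM (limma), while 1 of 31 was higher and 5 lower at an unadjusted p below 0.05, where 7.24% of all genes were higher and 12.4% lower. The median log2 fold change was -0.01. Mlst8, a subunit of the mTOR complexes, had 4.82, 4.30 and 4.15 FPKM with CBR-5884, against 7.30 and 7.31 FPKM with solvent. All 3 CBR-5884 libraries were below both solvent libraries, with a log2 fold change of -0.62 and an adjusted p of 0.0917 by limma. On FPM the groups overlapped, at 16.6, 14.4 and 13.5 with CBR-5884 against 16.6 and 15.7 with solvent, and the log2 fold change was -0.12 (limma adjusted p 0.510). With reference transcripts alone Mlst8 was at -0.34 on log2(FPKM + 1).

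Lamtor1 and Lamtor2, subunits of Ragulator, were at -0.28 and -0.20 on the log2 scale, with adjusted p of 0.123 and 0.139 by limma. Sesn2, a leucine sensor, was at -0.33 (adjusted p 0.154 by limma). Lamtor1 passed on FPM (log2 fold change -0.26, limma adjusted p 0.0467), but not with median-ratio scaling of FPM (adjusted p 0.0524 by limma) nor without any 1 library (0.0920 without CBR-5884 replicate 4 to 0.225 without solvent replicate 3). On the other side, the folliculin partners Fnip1 and Fnip2 were at 0.26 and 0.24 (adjusted p 0.171 and 0.258 by limma). The GATOR2 subunit Seh1l was at 0.07 and the mTORC1 activator Rheb at 0.05 (adjusted p 0.446 and 0.650 by limma). Rheb was at 0.13 on FPM.

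Promoters of the set were searched for letters known from amino acid and oxidative stress responses, in windows of 250 bases before to 50 after the start (RefSeq, GRCm38.p6), which the table holds for 6 of the 9 members. The C/EBP-ATF response element TGATGNAA, read on both strands, was found in 1304 of 32851 promoters (4.0%), and among members in Slc1a4 and in 2 of 5 promoters of Slc7a7. Those 2 Slc7a7 windows overlap and share a match. Slc7a11 held 2 matches. The antioxidant response element TGACNNNGC, read on both strands, was found in 12.4% of promoters, and among members in Slc38a2 and in 1 of 2 promoters of Slc7a1. Slc3a2 and Slc7a8 held neither in these windows. The only Slc3a2 window, chr19:8713848-8714147, lay inside the annotated gene, so the upstream end of the gene at 8723369 was not searched. The matches are a description of the letters and were not tied to the values.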

How the data were processed

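Per the labels' protocols, libraries were made from total RNA with a directional kit, and reads were single and 75 bp long. The submitters' processing notes name Bowtie2, TopHat2, Cufflinks and the build mm10 (GRCm38). Tool versions, annotation release and strand setting are not stated there. The deposited values are FPKM per transcript with a 95% interval, estimated by Cufflinks in each library alone, and no scaling between libraries is recorded. Solvent replicate 5 listed 37 transcripts on the mitochondrial chromosome, against 0 in each other library. Whether this bears on its values was not tested.

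GENCODE M21 gave the gene of each reference transcript (70923 of 71311 matched, 99.5%). Assembled transcripts of at least 200 nt with at least 50% of their exonic bases in exons of a gene on the same strand were added, and gene FPKM is the sum. Shorter assembled transcripts, those assigned to no gene and unmatched reference transcripts were not used. Together they made up 64.0% to 70.3% of all FPKM but 8.55% to 10.2% of covered bases. Differences were fitted on log2(FPKM + 1), a scale that understates the change of low genes, with limma 3.58.1 in R 4.3.3 (two-sided, lmFit and trended eBayes) on genes with mean FPKM of at least 1, with Benjamini-Hochberg adjustment over 10770 genes. The script was tested on simulated data. Alternatives were another pseudocount, filter, scaling, transcript set or variance model, a replicate block, and each library left out. FPM is FPKM times transcript length in kilobases, summed per gene. Exons were aligned with Biopython 1.88. Implied fragments are FPM times the implied depth.

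The members and lists were chosen with earlier results of these data known. Named beyond the members were, per list, any called gene and the 4 with the smallest p in each direction.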

Additional observations from a re-analysis of the deposited data

How the results depend on the processing

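The set had 0 members called on FPKM under all 16 alternatives of the FPKM fit, and Slc3a2 kept a positive log2 fold change of 0.34 to 0.44 with limma adjusted p of 0.0939 to 0.331. With 3 libraries against 2, differences the size of the wider intervals could not be resolved. Over all genes, where 5 were higher and 19 lower, 11 were lower with a pseudocount of 0.1, 3 higher with a pseudocount of 5, 33 lower with no filter, and 3 higher and 6 lower with a mean FPKM of at least 5. Reference transcripts alone gave 19 higher, and the most abundant reference transcript 14 higher. In both settings 1 other transporter was called, Slc6a6, listed at 0 in both solvent libraries there. With 1 library left out, over both scales, 6 to 31 genes were higher and 11 to 78 lower; where 1 solvent library was left, it was assumed to vary like the CBR-5884 group.

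Replicate numbers 3 and 5 occur in both groups, and deviations of replicate 3 from 5 correlated at r = 0.0875 across 10770 genes. A correlation from 2 possible pairs cannot settle whether equal numbers belong together. The main fit did not take them as pairs. The fit with the replicate block (1 residual degree of freedom) called 2 higher and 1 lower and 0 members, and Slc1a5 had -0.068.

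The FPM scale, added after seeing the data, gave 110 higher and 181 lower, 1 member and 2 other transporters, and with median-ratio scaling 132 higher and 130 lower, again 1 member and 2 others. Without any 1 library it called 0 members. The cause of the difference between the scales was not tested.

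Log2 fold changes of uncalled genes that turned sign were as follows. With reference transcripts alone, Slc38a1 was at -0.23, Slc38a6 at -0.15, Slc15a3 at 0.51, Fnip1 at -0.44 and Fnip2 at -1.79; with the most abundant one Slc38a1 was at -0.14, Slc38a6 at -0.40, Slc15a3 at 0.51, Fnip1 at -0.44 and Fnip2 at -1.79. Slc15a4 was at 0.010, 0.0050 and 0.0047 under TPM, median-ratio and quantile scaling. On FPM Slc1a5 was at -0.19 and Slc15a4 at 0.035, and with median-ratio scaling Slc1a5 at -0.15, Slc15a4 at 0.066 and Slc7a2 at 0.0064. With 1 library left out, over both scales, Slc1a5 ran from -0.29 to 0.26, Slc7a7 from -0.13 to 0.22, Slc7a2 from -0.26 to 0.16, Slc15a4 from -0.13 to 0.079, Slc15a3 from -0.29 to 0.029 and Rheb from -0.022 to 0.13. The cause was not tested.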
